A study of Mus musculus with 4 samples.

Results

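Interferon-stimulated effector genes encode the proteins that act directly against viruses inside a cell: enzymes that sense or destroy viral RNA, proteins that block viral entry and release, and enzymes that attach ISG15 or ADP-ribose to other proteins. A list of 42 of these genes was followed one by one in 2 mouse mammary epithelial lines. Probes carrying the gene's name were found for 39 of the 42 genes among the 28146 gene names of the array, 57 probes in all, and 15 genes had more than 1 probe. The brightest probe of each gene by its mean signal over the arrays stands for the gene, and the others are named where their direction or their test result differed. Herc6, Dtx3l and Ifi27 had no probe of that name.

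The cells were EPH-4, a non-malignant mouse mammary epithelial line. EV-50 is 1 clone carrying the empty H1-2 vector, and shGR-19 is 1 clone carrying a short hairpin RNA vector against the glucocorticoid receptor (GR, gene Nr3c1). Both clones carry a puromycin selection marker and were kept in serum-free DMEM/F-12 with 2 µg/ml puromycin and no glucocorticoid, so that the comparison asks what changes when the receptor without hormone is depleted. With 1 clone per line, the hairpin and differences between clones cannot be told apart. RNA of each line (300 ng a sample) was labelled with Cy3 and hybridised in duplicate to 4 Agilent Whole Mouse Genome arrays on 1 slide, 2 arrays per line. Nothing states that the duplicates came from separate cultures, so the p-values measure only the spread between these samples, which may be technical.

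Type I and type III interferons bind their receptors and act through JAK kinases to bring a complex holding STAT2 and IRF9 to the interferon-stimulated response element in the promoters of these genes. Interferon-gamma acts at gamma-activated sites. Epithelial cells keep a low standing level of many effectors without infection, and the glucocorticoid receptor is best known in this setting as a repressor of inflammatory genes when bound by hormone.

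Promoter sequence was read from RefSeq (GRCm38.p6 windows spanning the start) for 34 of the 42 genes. The letters of the response element, GAAA and GAAA with any 2 bases between them and read on either strand, were present in 15 of these 34 genes (44.1%), against 3.99% of the 27025 genes with such a window. The gamma-activated letters TTCNNNGAA were in 8 (23.5%, against 9.55% of all genes), some in the same windows. The glucocorticoid response letters, GNACA and TGTNC with any 3 bases between them, were in 0 of the 34 (0.537% of all genes), which says only that these letters are not in these windows. Stretches of 60 bases upstream of the start are shown for some of the genes with a match. The response element letters are in capitals, 5′ to 3′ on the strand of the gene.

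Oas1a, chr5:120907526-120907585, minus strand: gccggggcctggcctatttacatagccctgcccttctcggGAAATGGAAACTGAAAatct
Oas1g, chr5:120887614-120887673, minus strand: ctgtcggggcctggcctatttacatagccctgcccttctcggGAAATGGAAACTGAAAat
Oas1c, chr5:120812591-120812650, minus strand: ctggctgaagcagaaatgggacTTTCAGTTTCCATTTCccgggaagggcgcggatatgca
Oas3, chr5:120777700-120777759, minus strand: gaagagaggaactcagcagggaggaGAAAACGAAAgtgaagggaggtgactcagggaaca
Ifit1, chr19:34640769-34640828, plus strand: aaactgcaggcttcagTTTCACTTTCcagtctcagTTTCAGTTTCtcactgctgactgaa
Ifit3, chr19:34583365-34583424, plus strand: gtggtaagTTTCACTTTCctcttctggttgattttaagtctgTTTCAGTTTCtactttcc
Rsad2, chr12:26456538-26456597, minus strand: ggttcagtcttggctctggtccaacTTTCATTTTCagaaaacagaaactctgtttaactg
Bst2, chr8:71537565-71537624, minus strand: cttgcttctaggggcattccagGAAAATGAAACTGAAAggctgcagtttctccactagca
Isg15, chr4:156200856-156200915, minus strand: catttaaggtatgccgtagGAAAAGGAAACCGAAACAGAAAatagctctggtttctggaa

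The Oas1a and Oas1g stretches share a run of 56 bases upstream of the start. Oas1c holds the same overlapping pair of elements on the opposite strand, inside a shared run of 19 bases (CGGGAAATGGAAACTGAAA on the strand of Oas1a). Ifit1 and Ifit3 hold 2 separate elements each, whereas no match was found in the windows of Ifit2. In Isg15 3 overlapping matches run together.

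Each sample was available in 2 forms, and these did not tell the same story. The first is the scanner file of each array, used on the log2 scale after dividing by the 75th percentile of its signals. The second is the processed table of log2 values, in which each probe is centred on its median over the 4 samples. Over 10589 brighter probes the scanner arrays labelled replicate 1 of the 2 lines were nearly alike (SD of the difference 0.0812, 0 probes over 2-fold apart), although they are labelled as different lines. Those labelled replicate 2 differed with an SD of 0.464 and 357 probes over 2-fold. Arrays of the same label differed more still, with SDs of 0.55 in EV-50 and 0.667 in shGR-19. Duplicates in the value table, by contrast, differed with SDs of 0.0964 and 0.0862, and columns of different lines with SDs of 0.464 to 0.472. The value-table difference of these probes correlated with their difference between the replicate 2 arrays at r = 0.962 and between the replicate 1 arrays at r = 0.129, a description across probes of shared samples.

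The targeted gene, Nr3c1, had scanner levels of 1.73 (replicate 1) and 1.85 (replicate 2) in EV-50, and of 1.39 (replicate 1) and -0.11 (replicate 2) in shGR-19 (brightest of 4 probes, chromosome 18 of mm9). The library labelled shGR-19 replicate 1 therefore lay far closer to EV-50 than to its own duplicate. In the value table Nr3c1 was 1.94 log2 units lower in shGR-19 (standard error 0.048, adjusted p = 0.00213 from limma). The scanner difference was -1.15 (standard error 0.55, adjusted p = 1 from limma), -0.35 between the replicate 1 arrays and -1.96 between the replicate 2 arrays. Results are therefore given from the value table, from all scanner arrays and from the replicate 2 arrays alone.

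Of the 39 effector genes with a probe, 33 were well above background in both replicates of one line or of both and entered the test over 24453 probes. By the value table, 18 of the 33 (54.5%) were called lower in shGR-19, at an adjusted p below 0.01 and more than 2-fold, where 2.39% of all tested probes were. The genes were chosen with earlier results of these data known, so the contrast with all probes is a description and not independent support. None was called higher by limma (1.88% of all tested probes), and 2 were higher at an unadjusted p below 0.05. At the adjusted p alone 19 were lower (57.6%, against 6.04% of probes) and 1, Epsti1, was higher (5.54% of probes). The median log2 difference, shGR-19 minus EV-50, was -1.18 over the 33 genes and 0.0087 over all tested probes, with a range from -5.78 for Oas1a to 0.93 for Epsti1. In 30 of the 33 genes the difference was below 0, where 49% of probes were. Every EV-50 column lay above every shGR-19 column for 29 of the 33, against 35.3% of tested probes. With any one column left out, EV-50 replicate 1 or 2 or shGR-19 replicate 1 or 2, 0 of the 33 were called, the adjusted p of the 20 genes that had passed lying between 0.0259 and 0.0603, while 19 of the 20 remained lower each time.

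**Figure D1:**
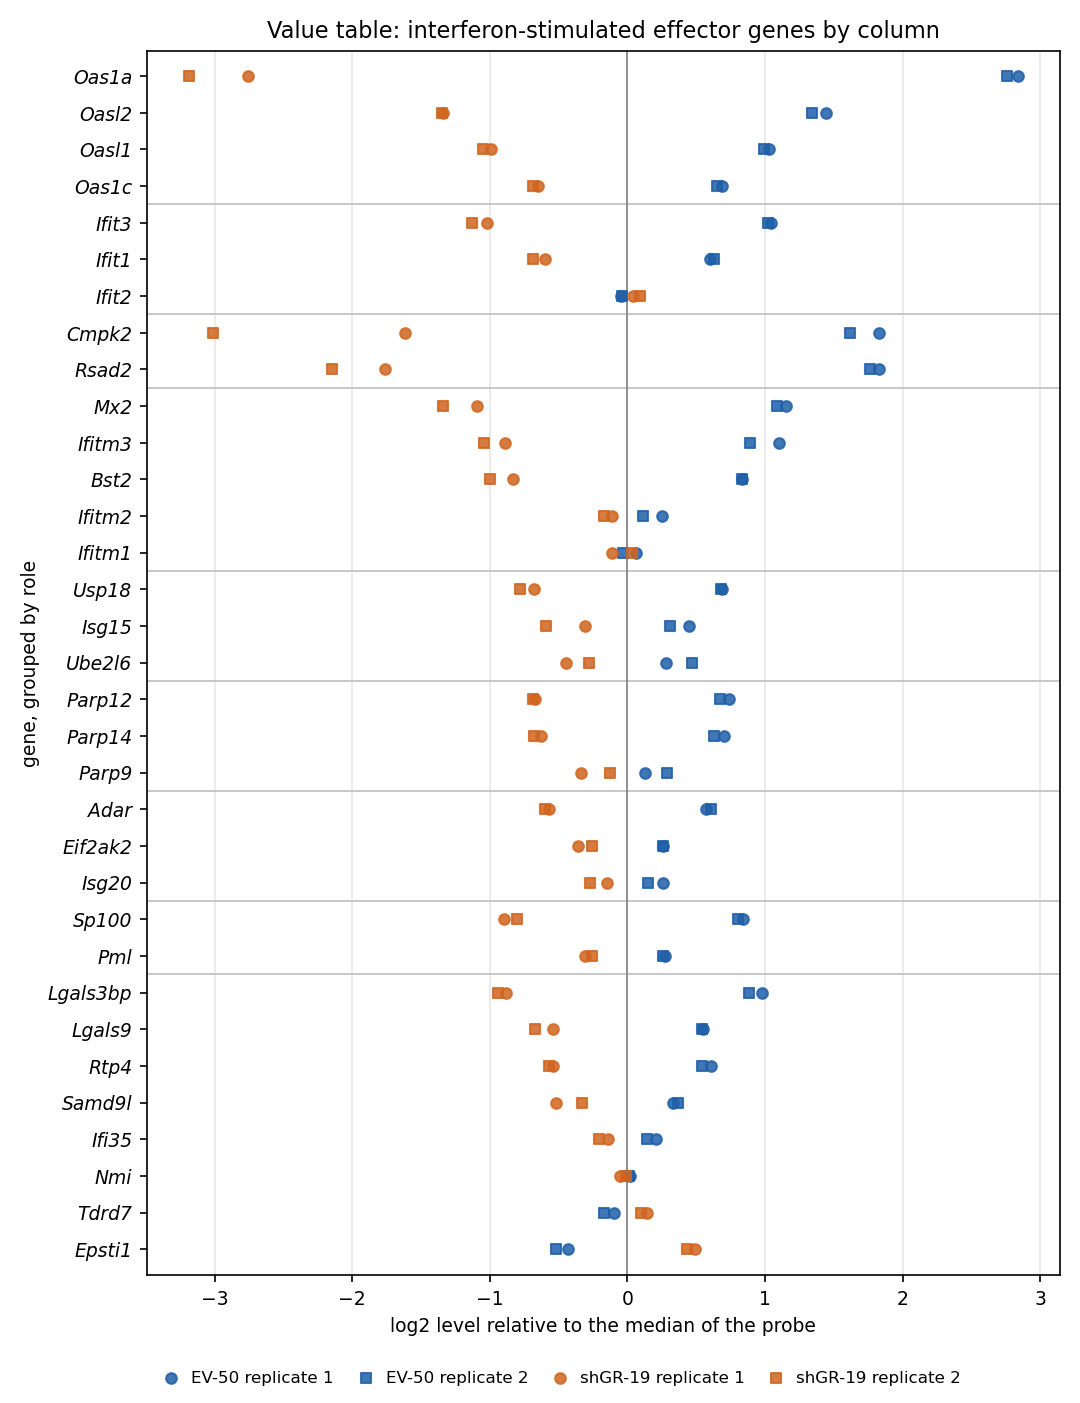
Level of each of the 33 tested effector genes in the 4 columns of the value table, in log2 units relative to the median of the probe (x axis), with genes grouped by role (y axis, groups parted by lines). Blue marks are EV-50 and orange marks shGR-19, circles replicate 1 and squares replicate 2; for 29 genes both blue marks lie to the right of both orange marks, and for Epsti1, Tdrd7 and Ifit2 they lie to the left.

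Over all 4 scanner arrays the same 33 genes had a median difference of -0.71 (0.016 over all tested probes), and 30 were lower, where 47% of probes were. None was called (0% of all probes), the lowest adjusted p among them was 1 by limma, and 1 gene had an unadjusted p below 0.05 (0.838% of probes). The replicate 2 arrays gave a median of -1.23, with 30 genes lower and 19 more than 2-fold lower (3.24% of probes). The replicate 1 arrays gave a median of -0.13, from -0.56 to 0.15, with 27 lower (39.5% of probes) and 0 more than 2-fold lower (1.1% of probes).

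Most of these genes read highest on the scanner array labelled EV-50 replicate 2. The median level of the 33 genes was -1.04 (replicate 1) and 0.84 (replicate 2) in EV-50, and -1.09 (replicate 1) and -0.19 (replicate 2) in shGR-19. For 28 of the 33 (84.8%) the EV-50 replicate 2 array was the highest of the 4, as it was for 22.2% of tested probes. The exceptions were Epsti1, Ifit2, Ifitm1, Ifitm2 and Tdrd7. Without the EV-50 replicate 2 array 13 of the 33 were lower in shGR-19 and the median difference was 0.13. That leaves EV-50 replicate 1 against shGR-19 arrays of which replicate 1 is nearly alike to it. It therefore cannot show how much of the difference 1 array carried. The array labelled shGR-19 replicate 2 was not uniformly the lowest: it lay below both replicate 1 arrays for 12 genes, above both for 20 and between them for Ifit1. Fewer expressing cells and less RNA per cell cannot be told apart in these bulk samples.

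**Figure D2:**
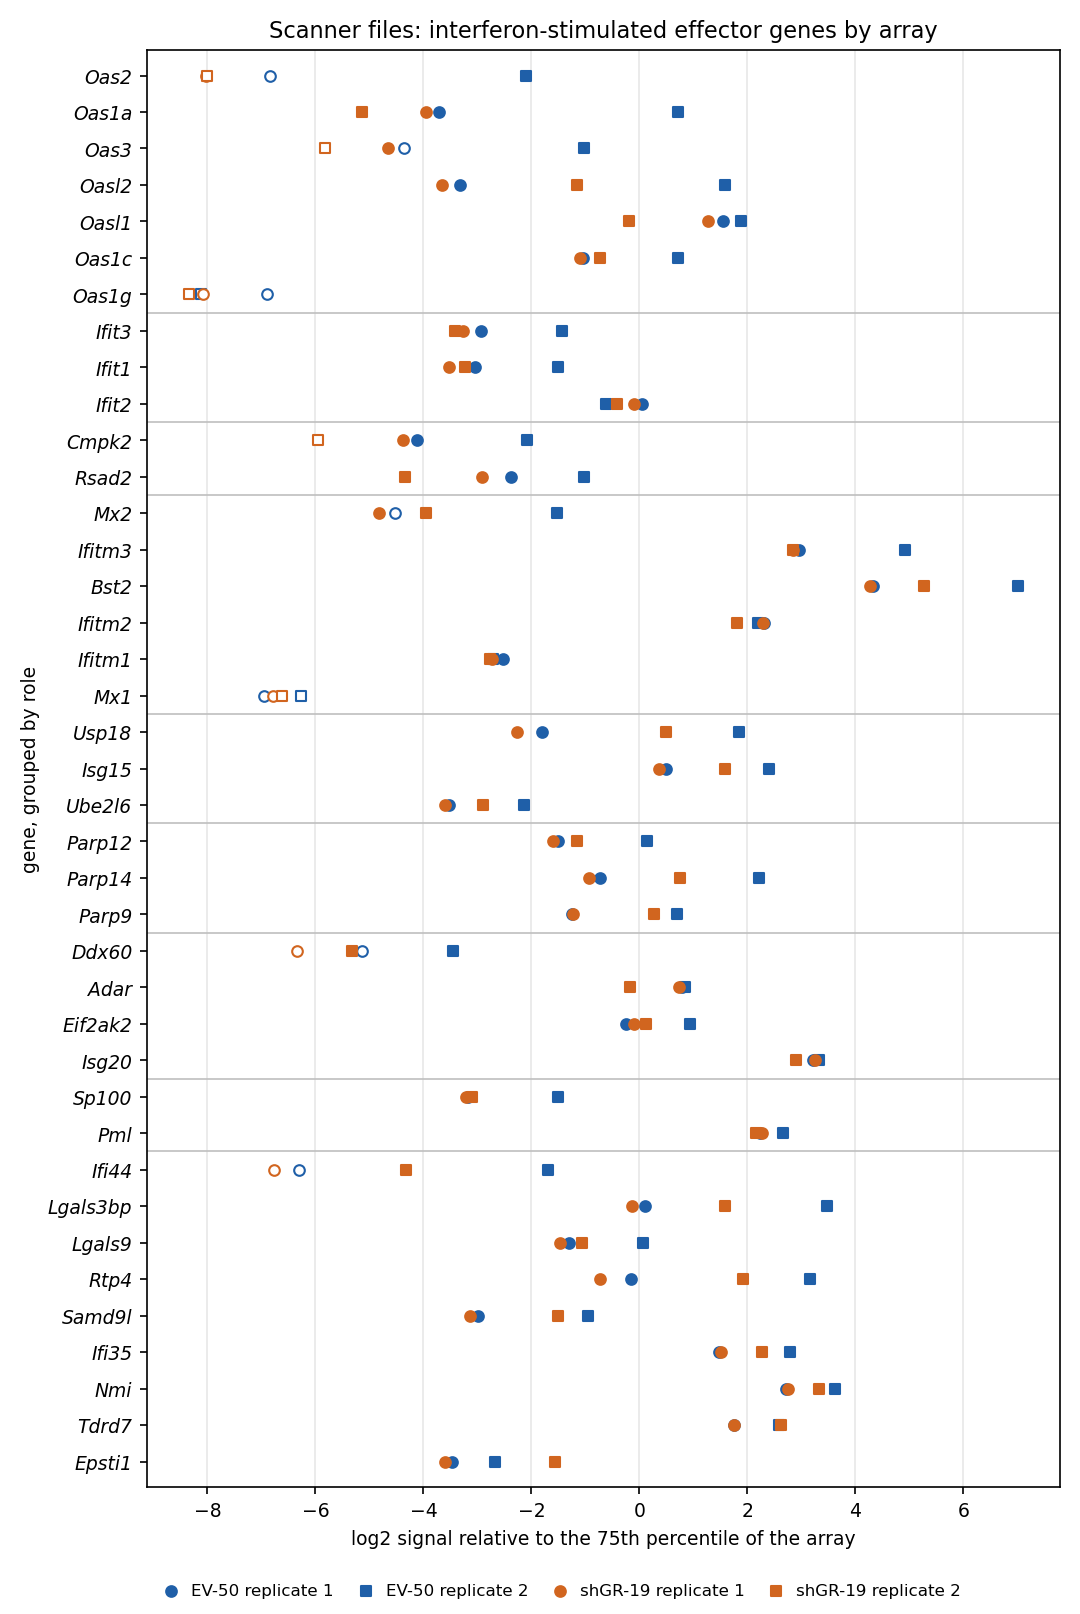
Level of the 39 effector genes with a probe on the 4 scanner arrays, in log2 signal relative to the 75th percentile of each array (x axis), genes grouped by role (y axis). Filled marks were well above background and open marks were not; blue is EV-50, orange shGR-19, circles replicate 1 and squares replicate 2. The circles of both colours nearly coincide for most genes, and the blue square lies to the right of the orange square for 30 of the 33 tested genes.

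The tested genes of the 2-5A synthetase family were lower as a group. Some but not all proteins of this family make short oligoadenylates when they meet double-stranded RNA. Of 7 genes with a probe 4 were tested, and 4 of 4 were called lower in the value table (median -2.38), where 2.39% of all tested probes were. Oas1a, an active synthetase (probe on chromosome 5 of mm9, 121348348 to 121348407), read 2.84 and 2.76 in the EV-50 columns and -2.76 and -3.19 in those of shGR-19, a 54.8-fold lower level (log2 difference -5.78, standard error 0.173, adjusted p = 0.00241 from limma). On the scanner arrays Oas1a was -3.71 and 0.72 in EV-50 and -3.95 and -5.13 in shGR-19. Its EV-50 replicate 2 value stood apart from the other 3, all of which were far lower. The scanner difference of -3.04 (standard error 1.57) became -0.83 without the EV-50 replicate 2 array.

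Oasl2, an OAS-like protein with a ubiquitin-like end, had value-table levels of 1.44 and 1.34 in EV-50 and -1.34 and -1.35 in shGR-19 (6.68-fold lower, log2 difference -2.74, standard error 0.0586, adjusted p = 0.00192 from limma). Its scanner levels were -3.32 and 1.59 in EV-50 and -3.65 and -1.16 in shGR-19, so that both replicate 2 arrays lay above both replicate 1 arrays. Oasl1, which restrains translation of Irf7, read 1.03 and 0.99 against -0.99 and -1.05 (4.07-fold lower, adjusted p = 0.00217 from limma). The scanner arrays gave Oasl1 1.55 and 1.88 in EV-50 and 1.27 and -0.19 in shGR-19, where the shGR-19 replicate 2 array alone stood apart. Oas1c, another member of the Oas1 cluster, read 0.69 and 0.65 against -0.65 and -0.69 (2.54-fold lower, adjusted p = 0.00279 from limma), and on the scanner arrays -1.04 and 0.72 in EV-50 and -1.09 and -0.73 in shGR-19.

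The other genes of this family were too dim to be tested. Oas2 was well above background only on the array labelled EV-50 replicate 2, at -2.10, against -6.84 on EV-50 replicate 1 and -8.03 and -8.00 in shGR-19. Its mean signal in EV-50 was 6.44-fold above that in shGR-19. The shGR-19 side was taken per array as the higher of its own signal and the lowest signal of any probe well above background. The EV-50 mean includes the replicate 1 array, where Oas2 was not well above background, so this is not a strict lower bound. A second Oas2 probe, above background on no array, differed by -0.99 in the value table, against -5.99 for the first. Oas3 was above background on 2 arrays, one of each line, and read -4.36 and -1.02 in EV-50 and -4.66 and -5.83 in shGR-19. The -4.36 of EV-50 replicate 1 was not well above background, although the lower -4.66 of shGR-19 replicate 1 was. The value-table columns of Oas3 stood at 2.53 and 2.54 in EV-50 and -2.53 and -3.50 in shGR-19. Oas1g was above background on no array, with -6.90 and -8.11 in EV-50 and -8.08 and -8.35 in shGR-19, so no difference is read from it although its promoter stretch nearly matches that of Oas1a. Oas1a and Oas1g belong to 1 gene cluster with similar members, and whether their probes share target RNA was not tested.

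The Ifit genes encode a family of antiviral proteins, and the 3 members followed here did not move alike. Ifit3 (chromosome 19 of mm9, 34663105 to 34663164) read 1.04 and 1.02 in EV-50 and -1.02 and -1.13 in shGR-19 (4.32-fold lower, log2 difference -2.11, standard error 0.0618, adjusted p = 0.00233 from limma). Ifit1 read 0.60 and 0.63 against -0.60 and -0.69 (2.4-fold lower, adjusted p = 0.0035 from limma). Ifit2, the direct neighbour of Ifit3 among protein-coding genes, read -0.050 and -0.043 against 0.043 and 0.092, a difference of 0.11 that did not pass (adjusted p = 0.158 from limma). A second probe of Ifit2 gave -0.41 (adjusted p = 0.232 from limma), the opposite sign. Of the 3 genes, Ifit2 is the one whose promoter windows held no response element letters.

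The scanner levels of Ifit3 were -2.93 and -1.44 in EV-50 and -3.27 and -3.41 in shGR-19, and those of Ifit1 were -3.04 and -1.51 against -3.53 and -3.23. In both genes the EV-50 replicate 2 array was the highest and the other 3 lay close together. Ifit2 read 0.041 and -0.61 in EV-50 and -0.094 and -0.42 in shGR-19, with its lowest value on that same EV-50 array.

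Rsad2 and Cmpk2 lie side by side on chromosome 12. Rsad2 encodes viperin, which makes a chain-terminating nucleotide from CTP, and Cmpk2 a mitochondrial nucleotide kinase. Rsad2 read 1.83 and 1.76 in EV-50 and -1.76 and -2.15 in shGR-19 (13.5-fold lower, log2 difference -3.75, standard error 0.158, adjusted p = 0.0033 from limma). Its scanner levels were -2.38 and -1.02 in EV-50 and -2.92 and -4.34 in shGR-19, so that the EV-50 arrays lay above the shGR-19 arrays without overlap, as they did in the value table. The scanner difference was -1.93 (standard error 0.697, adjusted p = 1 from limma), and -1.25 without the EV-50 replicate 2 array. Of 2 further probes of Rsad2, 1 was called (-3.77, adjusted p = 0.00637 from limma) and 1 did not pass (-2.36, adjusted p = 0.0773 from limma). Both entered the test only through EV-50, where they were higher, as each was above background on 1 shGR-19 array. They therefore add no independent weight to the first probe.

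Cmpk2 had a difference of the same size but did not pass the test. It read 1.83 and 1.62 in EV-50 and -1.62 and -3.01 in shGR-19 (log2 difference -4.04, standard error 0.531, adjusted p = 0.015 from limma), the shGR-19 columns lying much further apart than those of EV-50. On the scanner arrays Cmpk2 was -4.12 and -2.08 in EV-50 and -4.37 and -5.96 in shGR-19, and on the last of these it was not well above background. Cmpk2 thus entered the test only through EV-50, where it was higher.

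Among the restriction factors at membranes and the Mx GTPases, 3 of 5 tested genes were called lower (median -1.74), against 2.39% of all tested probes. Bst2 encodes tetherin, which holds budding virions at the cell surface. It read 0.83 and 0.83 in EV-50 and -0.83 and -1.0 in shGR-19 (3.34-fold lower, adjusted p = 0.00346 from limma), and on the scanner arrays 4.32 and 7.02 in EV-50 and 4.27 and 5.28 in shGR-19. Both replicate 2 arrays thus read Bst2 above both replicate 1 arrays. Ifitm3, which blocks fusion of viruses in endosomes, read 1.1 and 0.89 against -0.89 and -1.04 (3.89-fold lower, adjusted p = 0.00415 from limma). Its scanner levels were 2.96 and 4.92 in EV-50 and 2.84 and 2.84 in shGR-19, with 1 high array.

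The neighbours of Ifitm3 on chromosome 7 did not pass the test. Ifitm1 differed by -0.055 (standard error 0.0772, adjusted p = 0.618 from limma) and Ifitm2 by -0.31 (standard error 0.0732, adjusted p = 0.0474 from limma). Mx2, a GTPase of a family that restricts RNA viruses, read 1.15 and 1.09 in EV-50 and -1.09 and -1.34 in shGR-19 (5.06-fold lower, adjusted p = 0.0035 from limma). The scanner arrays gave Mx2 -4.53 and -1.52 in EV-50, the first not well above background, and -4.83 and -3.96 in shGR-19. Mx1 was well above background on no array.

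ISG15 is a ubiquitin-like protein that is joined to other proteins by a dedicated enzyme chain and removed by USP18. Usp18 was the 1 gene of 3 called lower (2.39% of all tested probes). It read 0.69 and 0.68 in EV-50 and -0.68 and -0.78 in shGR-19 (2.67-fold lower, adjusted p = 0.00316 from limma). On the scanner arrays Usp18 was -1.81 and 1.84 in EV-50 and -2.26 and 0.50 in shGR-19, and here too both replicate 2 arrays lay above both replicate 1 arrays. Isg15 itself differed by -0.82 (adjusted p = 0.0206 from limma) and the conjugating enzyme Ube2l6 by -0.74 (adjusted p = 0.018 from limma), and neither passed. The ligase gene Herc6 has no probe of that name, but 2 probes named Herc5 carry its RefSeq accession, with differences of -1.31 and -1.18 (adjusted p = 0.00657 and 0.00427 from limma).

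The PARP proteins attach ADP-ribose and restrict several RNA viruses. Parp12 read 0.74 and 0.67 in EV-50 and -0.67 and -0.69 in shGR-19 (2.62-fold lower, adjusted p = 0.00291 from limma), with scanner levels of -1.50 and 0.15 in EV-50 and -1.60 and -1.16 in shGR-19. Parp14 read 0.70 and 0.63 against -0.63 and -0.68 (2.49-fold lower, adjusted p = 0.00331 from limma), with scanner levels of -0.73 and 2.22 in EV-50 and -0.93 and 0.76 in shGR-19. In both genes the EV-50 replicate 2 array was the highest. Parp9 differed by -0.44 and did not pass (adjusted p = 0.0513 from limma). Of 2 further Parp14 probes 1 passed (-1.12, adjusted p = 0.00447 from limma) and 1 did not (-1.77, adjusted p = 0.0225 from limma).

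Among the genes that act on double-stranded RNA or degrade RNA, 1 of 3 tested was called lower (2.39% of all tested probes). Adar, which edits adenosine to inosine in double-stranded RNA, read 0.57 and 0.61 in EV-50 and -0.57 and -0.60 in shGR-19 (2.26-fold lower, adjusted p = 0.00316 from limma). Its scanner levels were 0.80 and 0.84 in EV-50 and 0.73 and -0.17 in shGR-19, so that only the shGR-19 replicate 2 array stood apart. A second Adar probe, which carries another accession, differed by -0.23 and did not pass (adjusted p = 0.0926 from limma). Eif2ak2, the kinase PKR, differed by -0.57 (adjusted p = 0.0103 from limma) and the exonuclease gene Isg20 by -0.42 (adjusted p = 0.0276 from limma). Ddx60, a helicase, was above background on the 2 replicate 2 arrays only, at -3.46 in EV-50 and -5.32 in shGR-19, and read -5.13 and -6.34 on the replicate 1 arrays.

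Sp100 and Pml encode proteins of nuclear bodies, and both passed the test. Sp100 read 0.84 and 0.80 in EV-50 and -0.90 and -0.80 in shGR-19 (3.19-fold lower, adjusted p = 0.0028 from limma), with scanner levels of -3.17 and -1.51 in EV-50 and -3.21 and -3.09 in shGR-19. Pml was 1.46-fold lower, under the 2-fold limit (log2 difference -0.54, adjusted p = 0.00823 from limma), and a second probe gave -0.61 (adjusted p = 0.00926 from limma).

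Of the 8 other effectors tested, 3 were called lower (2.39% of all tested probes) and Epsti1 rose. Lgals3bp, a secreted glycoprotein that binds galectins, read 0.98 and 0.88 in EV-50 and -0.88 and -0.94 in shGR-19 (3.59-fold lower, adjusted p = 0.00262 from limma). On the scanner arrays it was 0.099 and 3.48 in EV-50 and -0.14 and 1.58 in shGR-19. Both replicate 2 arrays again lay above both replicate 1 arrays.

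Lgals9, which encodes galectin-9, read 0.55 and 0.54 against -0.54 and -0.67 (2.21-fold lower, adjusted p = 0.00456 from limma), with scanner levels of -1.31 and 0.067 in EV-50 and -1.47 and -1.07 in shGR-19. Rtp4, which also serves as a chaperone of membrane receptors, read 0.61 and 0.54 against -0.54 and -0.57 (2.19-fold lower, adjusted p = 0.00359 from limma). Its scanner levels were -0.16 and 3.16 in EV-50 and -0.72 and 1.93 in shGR-19, the widest gap between the replicate 1 arrays (-0.56) among the 33 tested genes.

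Epsti1, named for its induction in epithelial cells by stroma, went the other way. It read -0.43 and -0.52 in EV-50 and 0.49 and 0.43 in shGR-19, 1.91-fold higher (log2 difference 0.93, standard error 0.0634, adjusted p = 0.00537 from limma). Its scanner levels were -3.47 and -2.68 in EV-50 and -3.59 and -1.56 in shGR-19, the shGR-19 replicate 2 array being the highest. Samd9l (-0.78), Ifi35 (-0.35), Nmi (-0.049) and Tdrd7 (0.26) did not pass (adjusted p from 0.0108 to 0.482 by limma), the proteins of Ifi35 and Nmi being binding partners of each other. Ifi44 was above background on the replicate 2 arrays only, at -1.70 in EV-50 and -4.33 in shGR-19. Ifi27 is carried by its accession on a probe named Ifi27l1, which was 1.90 log2 units lower (adjusted p = 0.00233 from limma).

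**Figure D3:**
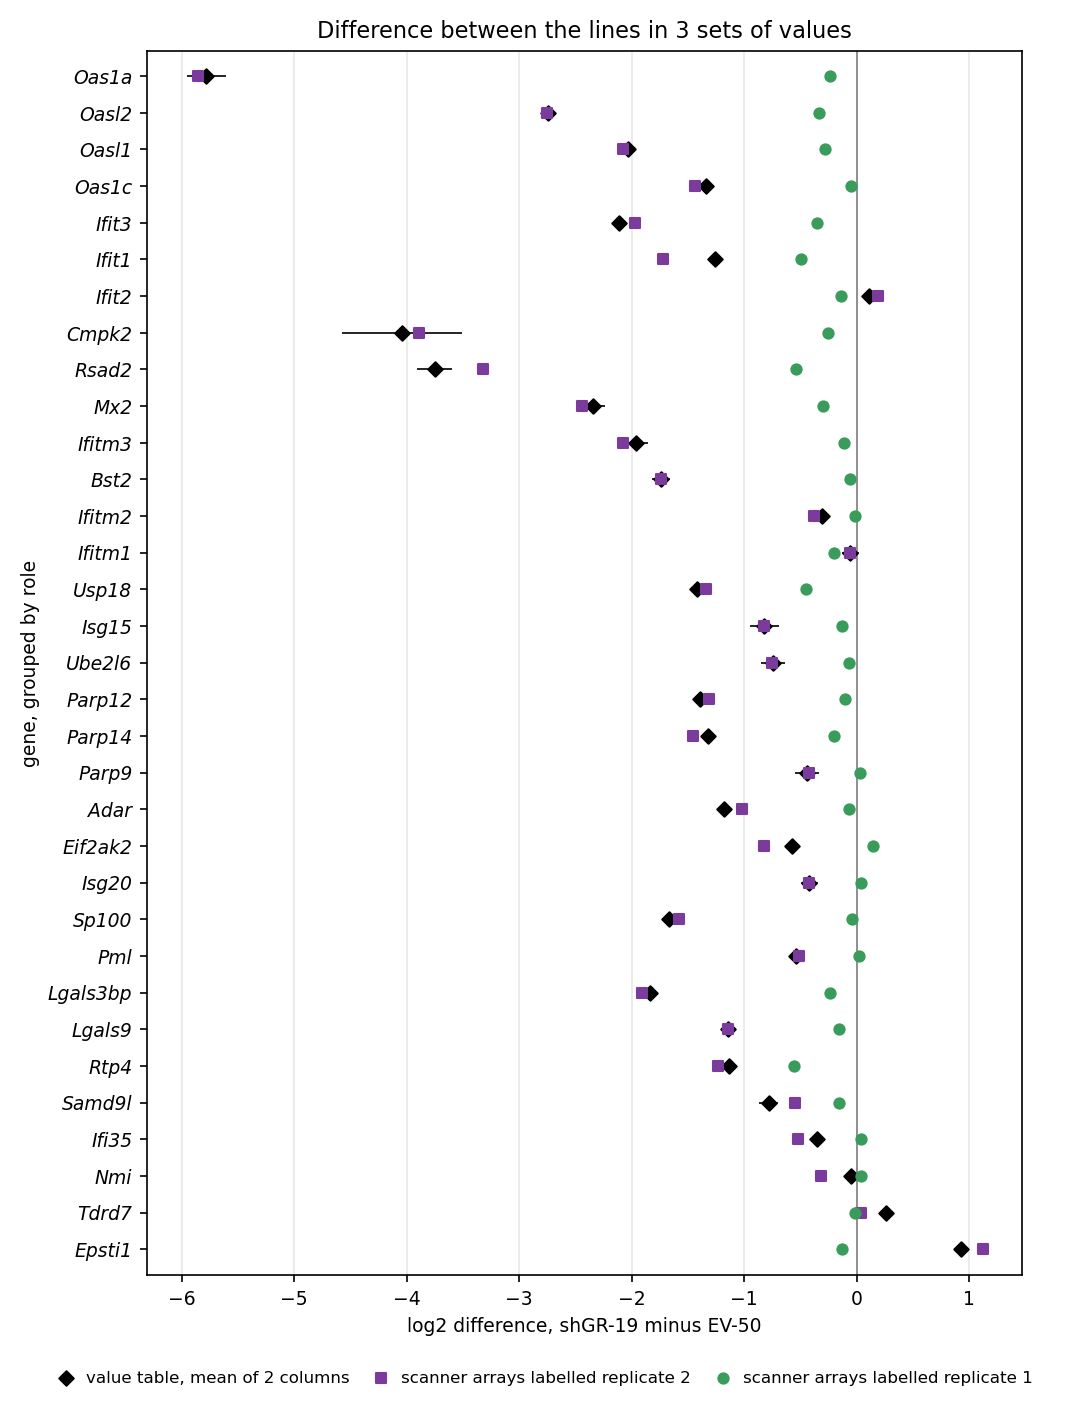
Log2 difference, shGR-19 minus EV-50 (x axis), of the 33 tested effector genes (y axis, in the order of the roles) in the value table (black diamonds, mean of 2 columns per line, bars are the limma standard error), between the scanner arrays labelled replicate 2 (purple squares) and between those labelled replicate 1 (green circles). Purple squares follow the diamonds with a median of -1.23, and the green circles stay between -0.56 and 0.15.

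The promoter letters did not divide the genes cleanly. Of the 12 tested genes with a response element match, 8 were called lower (median -1.30), where 2.39% of all tested probes were. Of the 16 with a window and no match 6 were called (median -0.76), among them Oasl1, Oasl2 and Sp100, and of the 5 with no window 4 were (median -1.32). Eif2ak2, Ifitm2, Isg15 and Tdrd7 held a match and did not pass.

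The genes that make, sense and pass on the interferon signal were followed as lists. Over 46 tested genes of this wider pathway 12 were lower and 6 higher at the adjusted p by limma, where 6.04% and 5.54% of all tested probes were. Of these 5 were called lower (2.39% of probes) and 2 called higher (1.88% of probes), and the median difference was -0.13. With any one column left out none was lower at that threshold, and on the scanner arrays none was. Of the 8 interferon genes with a probe, 3 were above background on no array, 4 were tested and none passed by limma (0 at an unadjusted p below 0.05). Ifnb1 was not tested: it was above background only on the array labelled EV-50 replicate 1, at -3.94. The nearly alike shGR-19 replicate 1 array gave -7.69. In the value table Ifnb1 read -0.039 and 0.039 in EV-50 and -1.13 and 0.29 in shGR-19.

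Among receptors and signalling genes, 3 of 16 fell (6.04% of all tested probes) and 5 rose (5.54% of probes). Among those that fell were Stat2, by 1.04, and Irf9, by 1.66 log2 units (adjusted p = 0.00596 and 0.0033 from limma), whose proteins bind the response element together. Those that rose were the receptor genes Ifnar1 (0.84) and Il28ra (0.84), the kinase gene Jak2 (0.56) and the feedback inhibitors Socs1 (1.49) and Socs3 (0.71), with adjusted p from 0.00469 to 0.00922 by limma. The scanner levels of Irf9 were -2.43 and -0.23 in EV-50 and -2.70 and -1.82 in shGR-19. Those of Stat2 were -1.21 and -0.0038 against -1.29 and -1.09, and the EV-50 replicate 2 array was the highest for both, as for most effectors.

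Of the 6 regulatory factors tested, Irf7, which amplifies interferon production, fell by 3.80 (adjusted p = 0.00125 from limma), whereas Irf8, best known from myeloid cells, rose by 2.70 (adjusted p = 0.00353 from limma). Irf8 entered the test only through shGR-19, being above background on 1 EV-50 array. Irf7 was -2.98 and 0.51 in EV-50 and -3.25 and -3.27 in shGR-19 on the scanner arrays, 1 high array and 3 alike. Of 12 sensors and adaptors 5 fell (6.04% of all tested probes) and 0 rose by limma (5.54% of probes). At an unadjusted p below 0.05 by limma, 2 were higher. The 5 that fell were the DNA and RNA sensor Zbp1 (-3.63), the RNA sensor Ddx58 (-0.93), its relative Dhx58 (-0.88), the RIG-I ligase Trim25 (-0.53) and the adaptor Myd88 (-0.52). Their adjusted p lay between 0.00527 and 0.00883 by limma. Of 8 partners of the effectors, Uba7, the activating enzyme of ISG15 conjugation, fell by 1.03 (adjusted p = 0.00603 from limma) and Parp10 by 0.77 (adjusted p = 0.00895 from limma).

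**Figure D4:**
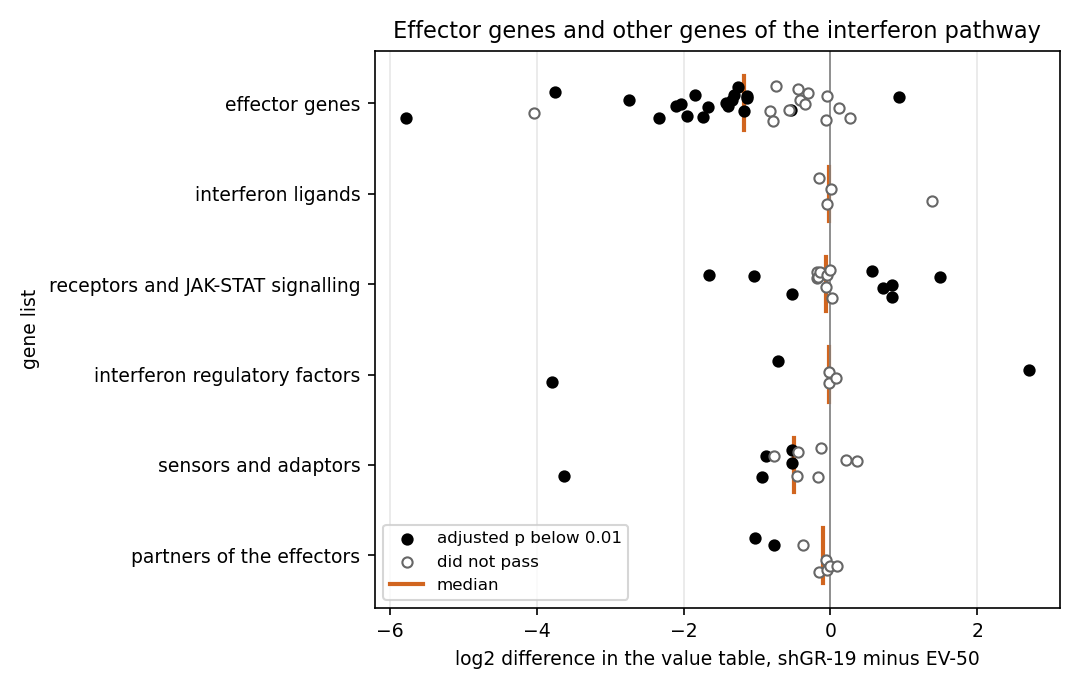
Log2 difference in the value table, shGR-19 minus EV-50 (x axis), of the tested effector genes and of 5 further lists of the interferon pathway (y axis, 1 point per gene, spread vertically for sight only). Filled points passed an adjusted p below 0.01 by limma, open points did not, and the orange bar is the median, -1.18 for the effector genes and between -0.49 and -0.021 for the other lists.

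Markers of the cell types were read from the same values. Of 8 epithelial markers with a probe 7 were above background on all arrays and none of the 7 tested passed by limma (3 had an unadjusted p below 0.05). The other, Krt19, was above background on 1 array of each line and was not tested. Its value-table difference was -2.76. Of 6 fibroblast markers 3 were tested and all 3 were called higher in shGR-19, where 1.88% of all tested probes were. The differences were 5.57 for Col1a1, 3.27 for Col1a2 and 1.16 log2 units for Pdgfra (adjusted p from 0.000887 to 0.00384 by limma). Col1a1 and Pdgfra entered the test only through shGR-19, where they were higher, as each was above background on 1 EV-50 array. Of the untested markers, Col3a1 differed by 1.65 and Lum by -0.59 in the value table. The summed fibroblast level (in units of the 75th percentile of the array) was 1.61 and 2.96 in EV-50 and 1.55 and 32.6 in shGR-19, while Dcn was above background on no array. Col1a2, at a scanner level of 4.85 on shGR-19 replicate 2, made up most of the last sum. The myoepithelial Krt14 was 1.13 lower (adjusted p = 0.00331 from limma), and the summed myoepithelial level was 66.2 and 165 in EV-50 and 68.2 and 80.6 in shGR-19, highest on the same array as most effectors. Krt14 made up most of that sum, and of the 5 myoepithelial markers tested it alone passed: Acta2 (-0.17), Krt5 (-0.30), Trp63 (-0.40) and Myh11 (0.39) did not (adjusted p from 0.0248 to 0.499 by limma).

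Of 6 macrophage markers Ptprc, Emr1 and Itgam were above background on no array, whereas Csf1r, Cd68 and Lyz2 were on all 4, and the summed level lay between 0.408 and 0.473. Lyz2 was 0.76 higher in the value table (adjusted p = 0.00676 from limma), but its difference was -0.038 over the scanner arrays and -0.31 between the replicate 2 arrays. Siglech and Ms4a1, markers of plasmacytoid dendritic cells and of B cells, were above background on no array, and no marker of dendritic cells or lymphocytes passed by limma (1, Itgax, at an unadjusted p below 0.05), the summed levels ranging from 0.0608 to 0.101 and from 0.364 to 0.405. The part of the fibroblast and myoepithelial genes in the effector differences was not tested.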

How the data were processed

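Per the labels and the file headers, the authors scanned 4 single-colour arrays and extracted intensity with Agilent Feature Extraction 10.5.1.1. The authors deposited their processed log2 values too, with each probe centred on its median; which scanner signal and scaling it came from could not be settled for the arrays labelled replicate 1. No column was left unmapped. Here log2 of the processed intensity minus the 75th percentile of each array, and separately the log2 table, were fitted with limma 3.58.1 in R 4.3.3 (lmFit, eBayes, no block) over the 24453 non-control probes well above background in both replicates of one line or of both, with Benjamini-Hochberg adjustment over all of them. Called means adjusted p below 0.01 and over 2-fold; the limits are those of the methods, which name no adjustment for the arrays. Column medians of that table lay between -0.0634 and 0.0763. In simulated data with 200 changed probes, the value-table fit over 24453 probes recovered 41 of 100 at a log2 change of 1.5 and 73 of 100 at 3. The scanner fit over 24450 probes recovered 0 at either size. Fewer probes were changed there than the 585 called lower and 459 called higher in the value table. The simulated spread was that within lines, which in the scanner files includes the unlike duplicates. Neither recovery can therefore be carried over to the data. The array labelled EV-50 replicate 1 had the fewest spots well above background, 23290, against 26745 to 27358 on the others. A probe could thus miss the filter on that array at a level that passed on another. Precision is limited by having 2 arrays a line.

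The effector genes and all lists were chosen with earlier results of these data known. A few listed genes are counted but not reported here by name. Values per sample are given for tested effector genes that differed by over 1 log2 unit in the value table, for those higher at adjusted p below 0.01, and for those over 1 apart between the replicate 1 arrays; outside these, all genes are given by difference, range or count, and values per sample of other pathway genes, Oas3 and Ifi44 were chosen after they were seen. Probe positions are in mm9 as the files give them, and no annotation of that build was used here.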

Additional observations from a re-analysis of the deposited data

How the results depend on the processing

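The alternatives were other background corrections, scalings, dim-probe filters, priors, tests, thresholds, probe rules, the replicate number as a block, and each array left out; the replicate 1 or 2 arrays alone were added after seeing the data. On the scanner arrays no effector gene was called under any of these, while 18 were called lower from the value table, 19 lower at the adjusted p and 12 lower pathway genes. Nr3c1 was -0.35 on the replicate 1 arrays, -1.96 on the replicate 2 arrays and -1.94 in the value table. Leaving out 1 scanner array moved the genes lower in shGR-19 from 13 (without EV-50 replicate 2) to 31.

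The calls in the value table depended on the filter, the test, the model and the samples fitted. With all probes kept 1 effector (Oas2, -5.99, adjusted p = 0.0089 from limma) and 1 pathway gene passed, and Nr3c1, at -1.94, did not (adjusted p = 0.0113). By the methods' t-test 18 were called lower unadjusted and 0 after Benjamini-Hochberg adjustment, with 0 pathway genes and Nr3c1 at -1.94. Leaving out any column gave 0 effector calls, 0 past the adjusted p and 0 pathway genes, with Nr3c1 between -1.95 and -1.92. The 20 genes that had passed had adjusted p of at most 0.0307 with all probes kept, 0.039 by the methods' t-test and 0.0603 with a column left out. Quantile normalization gave a median of -1.11. Directions turned for 2 genes that did not pass: Ifit2 (-0.15 as the mean of its probes) and Ifitm1 (0.06 in the replicate 2 columns alone, and from -0.12 to 0.014 with a column left out). At an adjusted p below 0.05, 27 effectors were lower.

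The replicate numbers did not pair the samples by any label, and with 2 pairs the data cannot settle it (correlation of same-numbered deviations 0.725 in the scanner files and 0.429 in the value table). With the replicate block, 0 effectors were called lower or passed the adjusted p, 0 pathway genes passed and Nr3c1 was -1.94 (adjusted p = 0.0293 from limma) in the value table, the effector genes that had passed lying between 0.0293 and 0.0325. On the scanner arrays the block gave 0 calls too.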
